A study of Homo sapiens with 6 samples.

Results

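The nuclear genes of respiratory complex I were followed in ARPE-19 cells, an established line of human retinal pigment epithelium, after a 24 h exposure to tt-DDE (trans,trans-2,4-decadienal, an aldehyde formed when linoleic acid is oxidised). The members were the 47 gene names of the deposited expression table that begin with NDUF and carry no further symbol joined by a hyphen, out of 19514 names in all. They comprised 39 names of subunits (NDUFA, NDUFB, NDUFC, NDUFS and NDUFV) and 8 of assembly factors (NDUFAF1 to NDUFAF8). Treated cells received 40 µM tt-DDE and control cells the same volume of its DMSO vehicle, both groups wild type and in medium with serum, with 3 libraries of polyadenylated RNA in each group. Nothing in the labels says whether the libraries came from separate cultures, so p-values measure the spread between these libraries, which may be technical.

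Complex I is the entry point of the mitochondrial respiratory chain. Its peripheral arm takes electrons from NADH and passes them along iron-sulfur clusters to ubiquinone, and its membrane arm pumps protons. Core subunits carry out this chemistry, supernumerary subunits surround them, and assembly factors bind intermediates during construction without staying in the finished enzyme. The retinal pigment epithelium is known to draw much of its energy from mitochondrial respiration. The membrane core subunits, which mitochondrial DNA encodes, were not analysed here.

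Total counts were 15548067 to 17130543 in the tt-DDE libraries and 14156421 to 16061373 in the DMSO libraries. Of 11 markers of pigment epithelium, RPE65, the retinoid isomerase, had 0 counts in all 6 libraries, TYR and TTR had 3 and 2 counts, and the other 8 had at least 60 counts. Their summed level was 475 to 496 CPM (counts scaled to library size) in tt-DDE libraries and 1280 to 1292 CPM in DMSO libraries, most of it from KRT8 and KRT18, keratins that many epithelia share. Without these the other 9 summed to 140 to 143 CPM in tt-DDE libraries and 136 to 139 CPM in DMSO libraries. Within these 9 BEST1, a chloride channel gene, stood at 20.1, 17.6 and 24.8 CPM in tt-DDE libraries, against 0.565, 0.503 and 0.498 CPM in DMSO libraries. OTX2, a transcription factor, was lower, at 59.3 to 62.1 CPM in tt-DDE libraries and 64.3 to 68.2 CPM in DMSO libraries. The rise of BEST1 and lower levels such as that of OTX2 offset each other in the sum. Near-equal sums therefore do not mean that single markers were unchanged. The summed level of 4 leukocyte markers was 1.46 to 2.28 CPM in tt-DDE libraries and 0.0623 to 0.283 CPM in DMSO libraries, with CD3E at 0. The 3 endothelial markers summed to 0.467 to 0.772 CPM in tt-DDE libraries and 0.0706 to 0.377 CPM in DMSO libraries. The 4 photoreceptor markers summed to 6.01 to 7.33 CPM in tt-DDE libraries and 6.97 to 7.80 CPM in DMSO libraries, with CRX at 0, and the 2 keratinocyte markers to at most 0.193 CPM in any library. The part of these shifts in the complex I values was not tested.

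The promoters of a few members are given as examples of different responses: NDUFV1 fell the most among core subunits, NDUFB6 fell the most among all subunits, NDUFB4 fell little, and NDUFAF1 and NDUFAF7 rose. NDUFB4 was picked after its values and its motif content had been seen. Each run is the 120 bases directly before the gene's start in RefSeq (GRCh38.p14), written 5′ to 3′ on the strand of the gene. The windows lie at chr11:67606816-67606935 on the + strand, chr9:32573160-32573279 on the - strand, chr3:120596216-120596335 on the + strand, chr15:41402497-41402616 on the - strand and chr2:37231538-37231657 on the + strand. Capitals mark letters that match a motif searched on both strands.
NDUFV1: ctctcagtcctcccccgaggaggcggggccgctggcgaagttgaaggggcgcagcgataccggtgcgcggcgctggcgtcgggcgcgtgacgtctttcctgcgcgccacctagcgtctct
NDUFB6: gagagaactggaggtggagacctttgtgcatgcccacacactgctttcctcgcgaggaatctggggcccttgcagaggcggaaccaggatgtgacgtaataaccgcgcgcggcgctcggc
NDUFB4: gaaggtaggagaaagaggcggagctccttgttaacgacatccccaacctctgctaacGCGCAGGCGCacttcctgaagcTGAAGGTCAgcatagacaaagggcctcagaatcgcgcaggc
NDUFAF1: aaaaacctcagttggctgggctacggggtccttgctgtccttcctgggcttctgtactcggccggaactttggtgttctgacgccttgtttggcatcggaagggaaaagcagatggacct
NDUFAF7: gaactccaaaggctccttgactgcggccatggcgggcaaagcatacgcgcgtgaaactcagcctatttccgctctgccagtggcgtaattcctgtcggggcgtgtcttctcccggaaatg
In NDUFB4 the first capital run matched the motif of NRF1 (nuclear respiratory factor, searched as GCGCA, any base, then GCGC) and the next the motif of the estrogen-related receptor ERRA (searched as TNAAGGTCA). The other 4 windows held no match to these or to the ETS family motif CCGGAAG, the YY1 motif AAGATGGC or the ATF4 motif TGATGNAA, which says only that these letters are not in them.

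Over the whole promoter table, which runs from 250 bases before to 50 bases after each start, 39 of the 47 members were matched by symbol. The YY1 letters stood in 6 of these 39 promoters (15.4%), against 5.41% of 10216 promoters of tested genes and 3.03% of all 27305 promoters. Holders were NDUFA3, NDUFA6, NDUFA7, NDUFA9, NDUFS4 and NDUFS7. The NRF1 letters stood in 7 (17.9%), against 11.6% of tested genes and 6.28% of all promoters, and the ETS letters in 6 (15.4%), against 19.2% and 10.7%. The ERRA and ATF4 letters stood in 1 member each, NDUFB4 and NDUFS6, against 0.489% and 1.70% of tested genes and 0.963% and 3.67% of all promoters. Among members whose transcripts fell, 4 of 30 held the YY1 letters and 5 of 30 the NRF1 letters. Among the other members these were 2 of 9 and 2 of 9. Both counts include NDUFA3, which holds the letters of both motifs but had too few counts to be tested for a change. Matches describe letters and are no evidence of binding.

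Most complex I transcripts were lower after tt-DDE, by modest amounts. Of the 37 subunit names with enough counts to be tested, 28 fell, 2 rose and 7 did not pass. The test was edgeR's quasi-likelihood test (two-sided, Benjamini-Hochberg adjusted p under 0.05, over 12531 gene names). Without NDUFA4, now assigned to cytochrome c oxidase, 36 were tested: 28 fell, 2 rose and 6 did not pass (median log2 fold change -0.47). In the same test 41.6% of all genes were called lower and 41.7% higher, 83.3% in either direction, so the share of subunits that fell was above the background and the share that rose below it. The median log2 fold change of the subunits was -0.44 (quartiles -0.68 and -0.20), against 0.00 for all genes tested (quartiles -0.68 and 0.66). Of the 8 assembly factors 6 fell and 2 rose, with a median of -0.47. In 27 of the 37 subunits every tt-DDE library lay below every DMSO library, which held for 41.9% of all genes, and in 2 every tt-DDE library lay above, which held for 42% of all genes (83.9% for either direction). Falls of at least 2-fold were seen in 7 of 37 subunits and 1 of 8 assembly factors. The background for such falls was 16.8%, so large falls were about as frequent among subunits as among genes at large. No tested subunit or assembly factor rose 2-fold, against 16.1% of all genes.

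**Figure D1:**
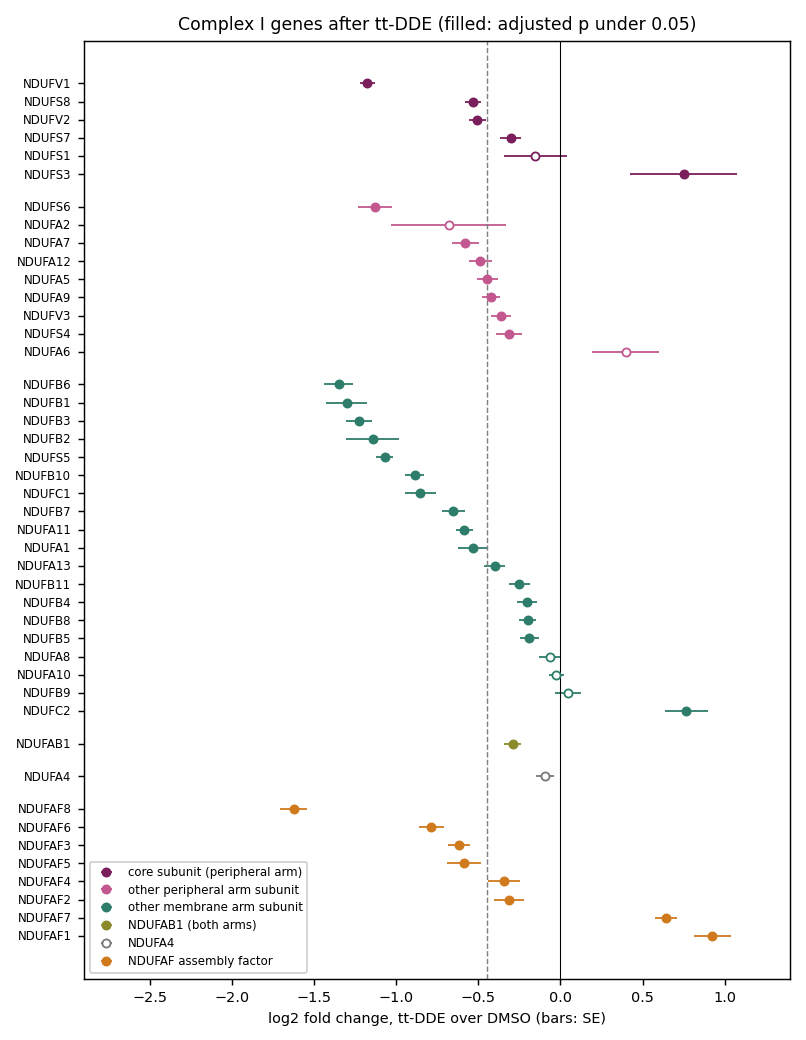
Log2 fold change of tested complex I genes, tt-DDE over DMSO, on the horizontal axis, grouped by class, with bars for the standard error and filled points for adjusted p under 0.05. The dashed line is the subunit median of -0.44; most points lie left of 0, and NDUFAF1, NDUFC2, NDUFS3 and NDUFAF7 are the 4 filled points to its right.

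All CPM from here on are scaled with TMM factors, which correct library size for composition, and values are in the order of library 1 to 3. Summed over the 39 subunit names, the level was 1390, 1370 and 1454 CPM in tt-DDE libraries, against 1967, 2001 and 1995 CPM in DMSO libraries. The groups were well apart, with a ratio of the means of 0.707. The 8 assembly factors summed to 184, 170 and 173 CPM in tt-DDE libraries, against 229, 239 and 226 CPM in DMSO libraries, a ratio of 0.761. In bulk RNA a lower share of reads cannot be told apart from fewer cells that make the transcript or less of it in each cell.

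The 7 core subunits with nuclear genes all belong to the peripheral arm, and 5 of them fell, against 41.6% of all genes tested. NDUFV1, which binds NADH and the flavin that accepts its electrons, had 78.4, 74.7 and 79.2 CPM in tt-DDE libraries, against 176, 175 and 174 CPM in DMSO libraries. Its groups did not overlap, and its log2 fold change of -1.18 (SE 0.0444, adjusted p = 2.04e-27, edgeR) was the only one of at least 2-fold among core subunits. NDUFV1 lies on chromosome 11, 67606936 to 67612554 (GRCh38.p13). NDUFV2, its iron-sulfur partner, had 70.1, 63.8 and 71.6 CPM in tt-DDE libraries, against 96.4, 99.3 and 95.8 CPM in DMSO libraries. This was a fall of 0.51 on the log2 scale (a log2 fold change of -0.51, SE 0.0513), so the pair at the tip of the arm did not change by equal amounts.

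NDUFS8, which carries iron-sulfur clusters, had 67.8, 69.1 and 72.6 CPM in tt-DDE libraries, against 102, 102 and 98.7 CPM in DMSO libraries, with a log2 fold change of -0.53. NDUFS7, which holds the last cluster before ubiquinone, had 34.0, 31.7 and 36.6 CPM in tt-DDE libraries, against 42.9, 42.3 and 41.0 CPM in DMSO libraries, with -0.30. In both genes all tt-DDE libraries lay below all DMSO libraries.

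NDUFS1 and NDUFS3, also core subunits, were measured on few counts and were not called lower. NDUFS1, which holds several iron-sulfur clusters, had 54, 55 and 58 counts in tt-DDE libraries, against 59, 70 and 57 counts in DMSO libraries, and did not pass (log2 fold change -0.15, SE 0.192). NDUFS3, a scaffold of the ubiquinone-reducing part, had 19, 25 and 30 counts in tt-DDE libraries, against 13, 15 and 16 counts in DMSO libraries. It was called higher (0.75, SE 0.325, adjusted p = 0.0314, edgeR), but the call was lost when any 1 library other than tt-DDE library 1 was left out, and with DESeq2's Wald test (0.76, adjusted p = 0.122, in a range of 0.00848 to 0.176 over the alternatives). Without tt-DDE library 2 or 3 or DMSO library 1, 2 or 3 the log2 fold change of NDUFS3 was 0.74, 0.55, 0.72, 0.74 and 0.77. Both names have further rows on other scaffolds, and only 10.2% of the NDUFS3 counts stood on its row of chromosome 11. The 4 members with several rows (NDUFA3, NDUFA6, NDUFS1 and NDUFS3) held 31 to 376 counts over all libraries, while 41 of the other 43 held more than 500. Reads shared with a near-identical copy may be missing from such rows, so these 4 values are uncertain.

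**Figure D2:**
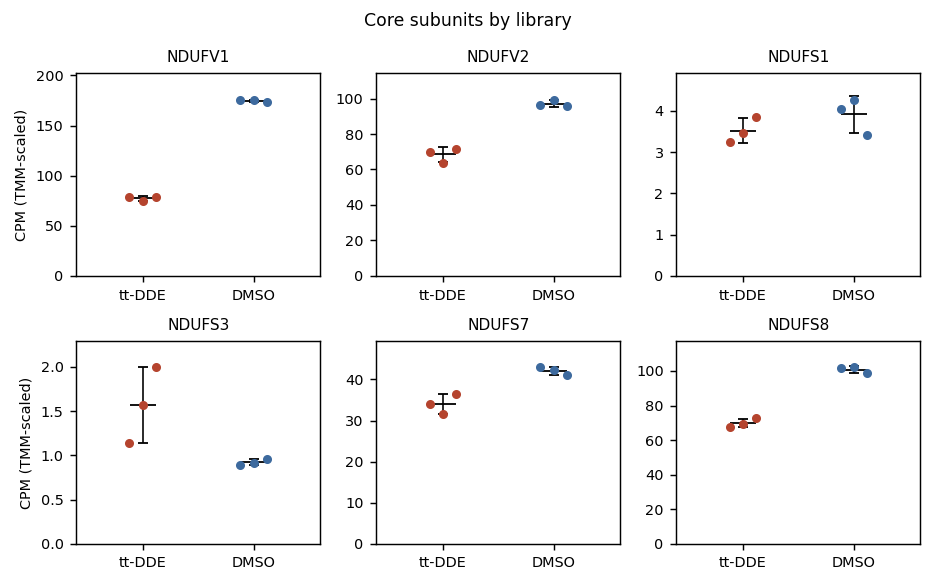
TMM-scaled CPM of 6 core subunits in the 3 tt-DDE libraries (left in each panel) and the 3 DMSO libraries (right), with the mean and SD as black marks and the vertical axes starting at 0. NDUFV1 shows the widest gap, 74.7 to 79.2 against 174 to 176 CPM, and NDUFS1 the points that overlap.

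Among the 9 supernumerary subunits of the peripheral arm 7 were called lower, 0 higher and 2 neither (median log2 fold change -0.44). The shares over all genes tested were 41.6% lower and 41.7% higher. NDUFS6, a zinc-binding subunit, was one of the 5 steepest falls among subunits outside the core. It had 11.4, 9.77 and 13.03 CPM in tt-DDE libraries, against 21.5, 26.5 and 26.4 CPM in DMSO libraries, with a log2 fold change of -1.13 (SE 0.104). Its gene overlaps MRPL36 on the other strand, which also fell (-0.50). The remaining falls of this arm were smaller, from -0.58 in NDUFA7 to -0.31 in NDUFS4, a subunit needed for a stable NADH-binding part. NDUFA12, whose place NDUFAF2 holds during assembly, was at -0.49, and NDUFA9, at the junction of the arms, at -0.42.

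NDUFA6 and NDUFA2 did not pass. NDUFA6 had 89, 59 and 66 counts in tt-DDE libraries, against 60, 64 and 38 counts in DMSO libraries, all of them on an alternate scaffold and none on chromosome 22. Its log2 fold change was 0.40, and it passed without tt-DDE library 2, DMSO library 1 or DMSO library 2 (0.52, 0.53 and 0.50). NDUFA2 had 17, 10 and 11 counts in tt-DDE libraries, against 23, 21 and 17 counts in DMSO libraries, a log2 fold change of -0.68. The groups touched at 17 counts, and NDUFA2 passed without tt-DDE library 1 (-0.91) or DMSO library 3 (-0.84), and when only library size was scaled (-0.77). It overlaps TMCO6 on the other strand, which fell (-1.98).

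The membrane arm had 20 supernumerary names, of which 19 were tested: 15 were called lower, 1 higher and 3 neither (median log2 fold change -0.53). For all genes tested these shares were 41.6% lower and 41.7% higher. Of the membrane arm members NDUFB6 fell most. Among the 5 subunits outside the core with the steepest falls 4 were NDUFB subunits, which build the distal part of this arm. NDUFB6 had 14.8, 14.8 and 11.6 CPM in tt-DDE libraries, against 34.7, 35.9 and 35.0 CPM in DMSO libraries (log2 fold change -1.35, SE 0.0871, adjusted p = 1e-18, edgeR). It overlaps SMIM27 on the other strand, which rose (0.94) at a low level. The means of SMIM27 were 2.26 CPM in tt-DDE libraries and 1.17 CPM in DMSO libraries. NDUFB1 had 7.87, 6.36 and 6.18 CPM in tt-DDE libraries, against 14.1, 17.6 and 18.7 CPM in DMSO libraries (-1.30, SE 0.125). Neither gene had a tt-DDE library near its DMSO range. NDUFB3 had 16.1, 15.9 and 17.2 CPM in tt-DDE libraries, against 37.8, 38.3 and 39.1 CPM in DMSO libraries (-1.23, SE 0.0775). NDUFB2 had 3.61, 5.10 and 3.59 CPM in tt-DDE libraries, against 7.76, 8.91 and 10.4 CPM in DMSO libraries (-1.14, SE 0.160).

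Not all NDUFB subunits moved by such amounts. The 11 NDUFB names, with values from -1.35 to 0.04, had 10 lower and 1 not past, against 41.6% lower over all genes tested. NDUFB4, NDUFB5 and NDUFB8 fell by only 0.20, 0.19 and 0.20 on the log2 scale. In NDUFB4 the groups overlapped, at 52.3, 56.0 and 51.3 CPM in tt-DDE libraries, against 55.4, 63.6 and 64.6 CPM in DMSO libraries. The single NDUFB name that did not pass was NDUFB9, with 27.4, 27.4 and 24.99 CPM in tt-DDE libraries, against 24.6, 24.9 and 27.8 CPM in DMSO libraries. Its log2 fold change was 0.04, and -0.05 when only library size was scaled. NDUFB9 overlaps TATDN1 on the other strand, which rose (0.59).

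NDUFA8 and NDUFA10, also of the membrane arm, were close to their DMSO levels. NDUFA8 had 43.3, 50.3 and 46.4 CPM in tt-DDE libraries, against 48.0, 45.6 and 52.6 CPM in DMSO libraries (-0.07, SE 0.0644). NDUFA10, a protein of the nucleoside kinase family, had 102, 104 and 111 CPM in tt-DDE libraries, against 107, 108 and 107 CPM in DMSO libraries (-0.03, SE 0.0461). In both genes the groups overlapped, and both genes passed as lower when only library size was scaled (-0.16 and -0.12).

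NDUFC2, next to the ND2 protein in the membrane arm, was the only subunit outside the core called higher. It had 10.9, 10.8 and 9.77 CPM in tt-DDE libraries, against 6.04, 6.53 and 5.95 CPM in DMSO libraries (log2 fold change 0.77, SE 0.131, adjusted p = 9.68e-07, edgeR). All tt-DDE libraries lay above all DMSO libraries, and the call held in each leave-one-out fit. Its gene (chromosome 11, 78068297 to 78079862) lies inside the read-through gene NDUFC2-KCTD14 on the same strand, which has 0 counts, and the part of this overlap in its value was not tested. Its partner NDUFC1 went the other way, at -0.85, and overlaps NAA15 on the other strand (-0.50).

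Beyond the core and the 5 highest and 5 lowest others, 18 subunits fell, and they ranged from -0.19 to -1.07 on the log2 scale. NDUFS5, an intermembrane-space subunit, was the lowest of these (-1.07, SE 0.0508), followed by NDUFB10 (-0.89). NDUFA13, also known as GRIM-19, was at -0.40, NDUFA11 at -0.58 and NDUFA1 at -0.53. NDUFAB1, the mitochondrial acyl carrier protein found in both arms, was at -0.29. In 17 of the 18 the groups did not overlap, the exception being NDUFB4. As all 18 were picked because they were called lower, this was nearly fixed in advance and adds no support. Groups did not overlap in 83.9% of all genes tested, counting either direction.

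The remaining names of the NDUFA series are not counted as complex I subunits in current structures. NDUFA4, now assigned to cytochrome c oxidase, had 68.6, 68.7 and 76.7 CPM in tt-DDE libraries, against 74.1, 78.0 and 76.0 CPM in DMSO libraries and did not pass (-0.09). It passed without tt-DDE library 3 (-0.15), with library size alone (-0.19) and with all genes kept (-0.12). NDUFA4L2, its hypoxia-inducible relative, had 1, 5 and 3 counts in tt-DDE libraries, against 0, 0 and 1 count in DMSO libraries, too few to be tested. The ratio of library-scaled counts was 8.45, with an exact 95% counting interval of 1.17 to 370. Its gene overlaps SHMT2 on the other strand, which stood at 373 CPM in tt-DDE libraries and 193 CPM in DMSO libraries. NDUFA3, a membrane arm subunit, was the other name not tested, with 3, 2 and 7 counts in tt-DDE libraries, against 9, 3 and 7 counts in DMSO libraries over its 10 rows.

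Assembly factors moved in both directions, and all 8 passed the test, as did 83.3% of all genes tested. NDUFAF8, which stabilises NDUFAF5, fell most of the 45 members tested. It had 12.4, 14.2 and 13.8 CPM in tt-DDE libraries, against 40.9, 41.4 and 42.5 CPM in DMSO libraries (log2 fold change -1.62, SE 0.0802, adjusted p = 5.51e-23, edgeR). NDUFAF5, which hydroxylates an arginine of NDUFS7, had 11.1, 10.7 and 9.97 CPM in tt-DDE libraries, against 15.6, 16.7 and 15.4 CPM in DMSO libraries (-0.59, SE 0.106). The pair therefore fell together, with all tt-DDE libraries below all DMSO libraries in both, but NDUFAF8 by far more.

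NDUFAF3 and NDUFAF4 act together early, on the ubiquinone-reducing part. NDUFAF3 had 38.8, 32.3 and 36.5 CPM in tt-DDE libraries, against 56.1, 59.4 and 49.8 CPM in DMSO libraries (-0.62, SE 0.0686). NDUFAF4 had 17.9, 14.9 and 13.9 CPM in tt-DDE libraries, against 20.7, 19.0 and 19.7 CPM in DMSO libraries (-0.35, SE 0.0975). Both fell without overlap of the groups. NDUFAF3 overlaps DALRD3 on the other strand, which fell by a similar amount (-0.66).

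NDUFAF6, an early factor, had 22.8, 20.03 and 22.4 CPM in tt-DDE libraries, against 37.7, 37.4 and 37.4 CPM in DMSO libraries (-0.79, SE 0.0744). On the other strand it overlaps CCNE2, which fell (-1.70), and TP53INP1, which rose (1.37). NDUFAF2, a late factor and paralogue of NDUFA12, had 22.7, 20.2 and 19.6 CPM in tt-DDE libraries, against 22.8, 30.1 and 24.8 CPM in DMSO libraries. Its groups almost touched, and its fall (-0.31, SE 0.0906) lost its call without DMSO library 2 (-0.20).

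NDUFAF1 and NDUFAF7 rose. NDUFAF1, a scaffold of the complex that assembles the membrane arm around ND2, had 16.1, 15.8 and 16.8 CPM in tt-DDE libraries, against 9.75, 7.57 and 8.41 CPM in DMSO libraries (0.92, SE 0.113, adjusted p = 5.65e-10, edgeR). NDUFAF7, an arginine methyltransferase, had 42.0, 41.8 and 40.3 CPM in tt-DDE libraries, against 25, 27.0 and 27.4 CPM in DMSO libraries (0.64, SE 0.0691). Both had every tt-DDE library above every DMSO library. NDUFAF7 overlaps PRKD3 on the other strand, which fell (-0.51). Over the 5 assembly factors with no overlapping gene 4 fell and 1 rose. Over the 25 subunits on a single row with no overlapping gene 22 fell and 0 rose. Of all genes tested, those with overlaps included, 41.6% were called lower and 41.7% higher.

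**Figure D3:**
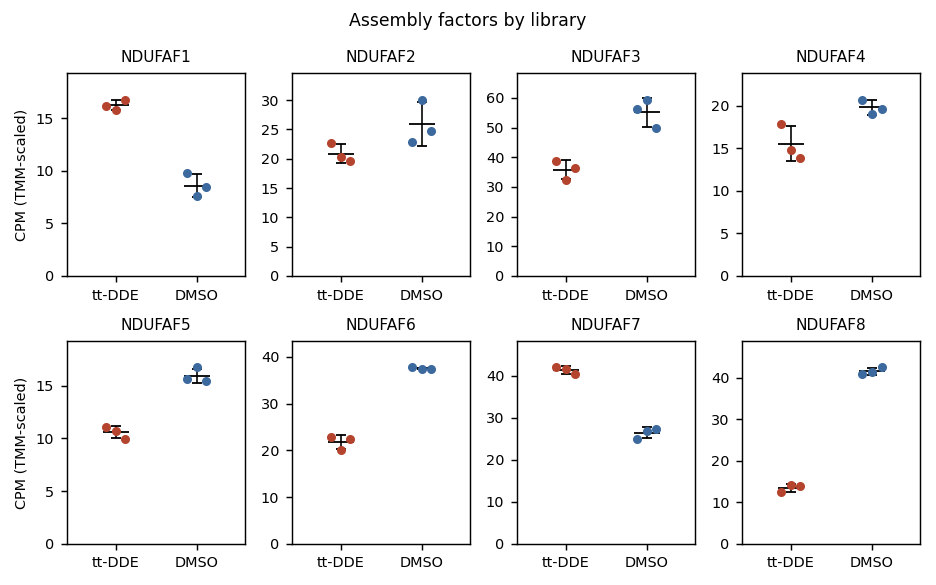
TMM-scaled CPM of the 8 NDUFAF assembly factors in the 3 tt-DDE libraries (left in each panel) and the 3 DMSO libraries (right), with the mean and SD as black marks and axes starting at 0. NDUFAF1 and NDUFAF7 are higher in all tt-DDE libraries, and NDUFAF8 has the widest gap in the other direction, 12.4 to 14.2 against 40.9 to 42.5 CPM.

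Other known complex I assembly factors, which carry no NDUFAF name, were mixed as well: of 11 tested 7 were called lower, 3 higher and 1 neither (median -0.65). The background over all genes was 41.6% lower and 41.7% higher. ECSIT, which works with NDUFAF1, rose (1.04), with 40.0, 43.3 and 42.6 CPM in tt-DDE libraries, against 18.6, 20.3 and 22.2 CPM in DMSO libraries. The other partners of that complex did not: ACAD9, TMEM126B and COA1 fell (-0.94, -0.98 and -1.24) and TMEM186 did not pass (-0.28). DMAC1, a factor of the distal membrane arm, had the steepest fall of this list (-2.39), with 11.6, 9.89 and 10.6 CPM in tt-DDE libraries, against 59.2, 53.6 and 56.0 CPM in DMSO libraries. NUBPL, which delivers iron-sulfur clusters, fell (-1.40), and TMEM70, a membrane protein that helps to assemble complexes I and V, rose (0.63).

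Nuclear genes of the other respiratory complexes were also mostly lower. Over all genes tested 41.6% were called lower and 41.7% higher, which is the background for each list that follows. Complex II had 3 lower and 1 higher of 4 (median -0.52), complex III 7 lower and 1 higher of 9 (-0.56), complex IV 10 lower of 10 (-0.41) and complex V 15 lower of 17 with 0 higher (-0.67). The members with the smallest p in each direction were SDHA (-0.79) and SDHB (0.18), UQCRQ (-1.59) and UQCRC2 (1.28), COX8A (-1.09) and ATP5MC1 (-2.14). UQCRC2 was measured at a low level, with 3.31, 5.23 and 3.26 CPM in tt-DDE libraries, against 1.79, 1.59 and 1.50 CPM in DMSO libraries. Among 76 mitochondrial ribosomal proteins 46 fell and 13 rose (-0.37), with MRPL12 at -1.18 and MRPL18 at 2.20. Of 12 regulators of nuclear genes for mitochondria 7 fell and 3 rose (-0.28), among them the coactivator PPARGC1B (-2.58), the mitochondrial DNA packaging factor TFAM (-0.68) and GABPB1, an ETS partner subunit (1.10). NRF1 itself did not pass (-0.20). No test of a difference between these lists was made.

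**Figure D4:**
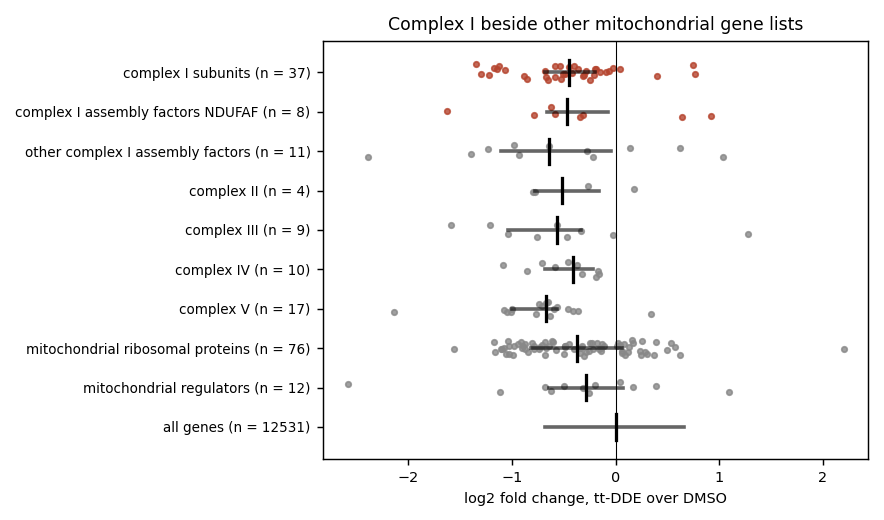
Log2 fold changes, tt-DDE over DMSO, of the tested genes of each list, 1 point a gene, with the median as a vertical tick and the quartiles as a thick bar; points are not drawn for all genes. The medians of complex I subunits (-0.44) and NDUFAF factors (-0.47) lie among those of the other respiratory complexes (-0.41 to -0.67), left of the 0.00 of all genes.

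Per length, on the authors' FPKM scale, the subunits differed widely in level. NDUFS5 was the highest member in both groups, at 116 ± 7.88 FPKM in tt-DDE libraries and 259 ± 2.70 FPKM in DMSO libraries (SD, n = 3 each). NDUFS8 came next, at 91.7 ± 3.17 FPKM in tt-DDE libraries and 141 ± 2.00 FPKM in DMSO libraries. NDUFA13 followed, at 89.3 ± 10.9 FPKM in tt-DDE libraries and 125 ± 7.28 FPKM in DMSO libraries. In tt-DDE libraries the levels of NDUFS8 and NDUFA13 were within their SDs of each other. NDUFV1 ranked 8 of 47 in tt-DDE libraries, at 48.0 ± 1.59 FPKM, and 4 of 47 in DMSO libraries, at 116 ± 0.190 FPKM. NDUFAF1 moved the other way, with rank 30 in tt-DDE libraries (8.88 ± 0.269 FPKM) and rank 37 in DMSO libraries (5.00 ± 0.635 FPKM). The length in the table reaches 13181 bases for NDUFAF7 and 12491 for NDUFA10, and FPKM depends on that length.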

How the data were processed

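Read counts and FPKM of polyadenylated RNA were taken from the table that the authors deposited. Per the file headers, each row holds a raw read count and an FPKM per library, with coordinates and length. Positions refer to GRCh38.p13, as the submitters' processing notes name it. Which aligner, counter, annotation release and strand setting were used is not given in the sources. The deposited FPKM equalled the count over length and column total for all 91254 values above 0 (relative tolerance 1e-06).

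Groups came from the sample titles. Counts of rows sharing a name were summed (22312 rows, 19514 names). In R 4.3.3, edgeR 4.0.16 filtered them (filterByExpr), scaled them (TMM) and compared the groups (glmQLFit, glmQLFTest, no covariate). Two-sided p-values were adjusted after Benjamini and Hochberg over 12531 names, with a threshold of 0.05. The code was tested on simulated data. Reads copied by PCR carry no molecular identifiers, so intervals cover counting error only. Within groups, pairs of libraries had a chi-square of 1.74 to 3.57 per degree of freedom, so no library was a repeat deposit. Alternatives were other scalings, no filter, DESeq2 1.42.0, limma 3.58.1 on log2(FPKM + 1), single rows, a replicate block and leaving out each library.

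Members and lists were chosen with earlier results of these data known. Library values are given for core subunits, NDUFAF factors, NDUFA4, NDUFA4L2 and the 5 highest and 5 lowest other subunits by log2 fold change, and of companion lists the smallest p in each direction is named. A few more were added after their values were seen. The values of 1 core subunit and 1 marker are counted in the lists but not reported here. Promoters are from RefSeq (GRCh38.p14).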

Additional observations from a re-analysis of the deposited data

How the results depend on the processing

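Counts of subunits called lower were 28 to 32 under every alternative that kept all subunits, and assembly factors had 5 or 6 lower and 2 higher. With library size alone the median of all genes shifted to -0.09, the subunit median to -0.54 and the subunit counts to 32 lower and 1 higher. With each row by itself the subunit median was -0.49. The subunits called higher were 1 with library size alone, no filter on low counts, each row by itself or the DESeq2 Wald test, and core subunits called higher were then 0, because NDUFS3 was no longer called or, with single rows, not tested. Leaving out 1 library gave 1 to 2 subunits higher, medians of -0.42 to -0.50, 0 to 1 core subunits higher and 0 to 1 supernumerary peripheral arm subunits higher (NDUFA6). Further checks of membership were added after seeing the data: without names on several rows the subunits had 28 lower, 1 higher and a median of -0.50, and on single rows with no overlapping gene 0 were higher. With the replicate block the subunits had 28 lower, 2 higher and a median of -0.45, and no member's call changed. Same-numbered libraries correlated at -0.0234, 0.0105 and -0.00665 in their deviations from the group means over 10314 genes. These values show no effect shared by same-numbered libraries. They cannot tell whether such libraries were handled together, which the labels do not say. Of 45 members tested, limma on log2(FPKM + 1) changed the call of 3 (NDUFA2, NDUFA4 and NDUFA8, then lower). NDUFA2, NDUFA3 and NDUFA4L2, with 99, 31 and 10 counts in all, have little depth behind their values, a floor of 3 counts being 0.175 to 0.212 CPM; why their counts are low was not tested.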

Other observations

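Falls of complex I transcripts were larger among short ones. Among subunits on a single row, the 9 with a table length under 700 bases were at a log2 fold change of -0.89 in the median, and 4 of them (NDUFB1, NDUFB2, NDUFS5 and NDUFS6) fell at least 2-fold. The 14 from 700 to below 2000 bases had a median of -0.56 and 3 such falls (NDUFB3, NDUFB6 and NDUFV1), and the 11 of 2000 bases or more had a median of -0.36 and 0 such falls. Spearman's rho between length and log2 fold change was 0.366 across these 34 subunits and 0.0630 across 12072 tested genes. Over all genes the medians of the same length classes were -0.34 (115 genes), -0.19 (1473) and 0.03 (10484), so short genes at large were lower too. Falls of at least 2-fold were called in 16.8% of all genes tested. This share was not split by length, so the counts of such falls have no background within their length class. The length classes were chosen after the values were seen, the points share the same 6 libraries, and no test was made.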
